A study of Mus musculus with 2 samples.

Results

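The integrated stress response was followed through 10 genes, the transcription factor Atf4 and 9 transcripts known to be induced downstream of it: Atf3, Ddit3, Trib3, Chac1, Asns, Sesn2, Psat1, Phgdh and Gdf15. They were listed by their known role, with earlier results of these data known, and all 10 were among the 27995 genes found in both count matrices. The cells were primary stromal vascular cells, the non-adipocyte fraction of fat, from pooled inguinal white (iWAT) and interscapular brown (iBAT) fat of wild-type C57BL/6N mice aged 8 to 12 weeks, grown in culture to 80% confluency. Per the labels, each depot gave 4 cultures, left untreated or given 5.5 nM of FGF1, of FGF2 or of FGF8 over 48 h, which were tagged, merged and run as 1 single-cell library. In the published methods the agents are vehicle, FGF1 and FGF2, and the ages of the mice are given differently. The tags were not in the matrices used here, so every value is a pool of the treatments and no FGF effect was analysed.

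The integrated stress response is a shared endpoint of several kinases that phosphorylate the translation factor eIF2alpha when a cell lacks amino acids or haem, accumulates unfolded protein in the endoplasmic reticulum (ER) or senses viral RNA. General translation then slows, while the Atf4 message is translated more. ATF4 protein therefore rises largely without a change in its mRNA, and its activity is usually read from its target genes, which supply amino acids, restrain the response or, through Ddit3 (CHOP), favour cell death.

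With 1 library per depot there was no replicate, so no difference has a test. Depot and every other property of a library cannot be told apart. Levels are unique molecular identifiers (UMIs) of a gene per 1000000 UMIs of the summed cells (CPM), with exact 95% Poisson intervals. Ratios carry exact conditional binomial intervals, shares of cells exact binomial intervals, and all cover counting error only. After removal of cells with 200 genes or fewer, 7500 or more, or 30% or more mitochondrial UMIs, 29744 iWAT and 28215 iBAT cells remained, with medians of 16204 and 27235 UMIs, and the libraries shared 8 barcode names.

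Pdgfra-positive cells, the stromal population that holds preadipocytes, had a Pdgfra UMI after thinning to 5000 UMIs and fewer than 3 markers of any other class. They numbered 8804 in iWAT and 17491 in iBAT. All 10 stromal markers, among them Col1a1, Dcn and the gate gene Pdgfra, were found at 1 CPM or more in both. Together they gave 31733 CPM in iWAT and 13457 CPM in iBAT, so the cells of the depots were not alike in these markers. Xist was at 349.4 CPM in the iWAT cells but 0.0444 CPM in those of iBAT, whereas the Y-linked Ddx3y was at 1.14 and 81.6 CPM, so sex-linked transcripts moved with the depot. Their part in the results below was not tested.

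The 4 targets that held the core of the motif bound by C/EBP and ATF4 heterodimers, TGATGNAA, near their start are shown first. On both strands of RefSeq promoter windows (GRCm38.p6, 250 bases before to 50 after a start), 4 of the 10 members, Atf3, Chac1, Asns and Trib3, held it, against 4.51% of the 27025 genes with a window. The stricter TGATGCAA, which is contained in the first motif, was in Atf3 and Chac1 and in 1.03% of genes, and the cyclic AMP element TGACGTCA was in 0 members and 2.03% of genes. The Trib3 match lay just after the start and is not printed. The upstream stretches read 5′ to 3′ on the strand of the gene, with the match in capitals. For Atf3 and Chac1 the capitals are the reverse complement of the motif. They lie at chr1:191183410-191183469 (minus strand) for Atf3, chr2:119351023-119351082 (plus strand) for Chac1 and chr6:7693210-7693269 (minus strand) for Asns.
Atf3: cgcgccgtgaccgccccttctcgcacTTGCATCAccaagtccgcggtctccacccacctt
Chac1: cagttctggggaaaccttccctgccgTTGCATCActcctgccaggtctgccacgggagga
Asns: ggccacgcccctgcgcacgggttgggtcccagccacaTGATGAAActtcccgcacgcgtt
A match is a string of letters and not evidence of binding, and the 6 members without it may hold a site elsewhere. The members were listed as ATF4 targets, so their share with a match is no result of these data. A link between a match and the depot ratios was not tested.

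Between the depots, 9 of the 10 members were lower in iBAT than in iWAT Pdgfra-positive cells, and Gdf15 was higher. The share of all genes that were lower in iBAT was not taken. Atf3, Trib3 and Chac1 were 2-fold or more higher in iWAT, as were 6.63% of the 13649 genes at 1 CPM or more in at least 1 library. Gdf15 was 2-fold or more higher in iBAT, as were 5.74% of genes. The median log2 ratio of the members, iBAT over iWAT, was -0.59, against 0.05 over all genes compared.

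**Figure D1:**
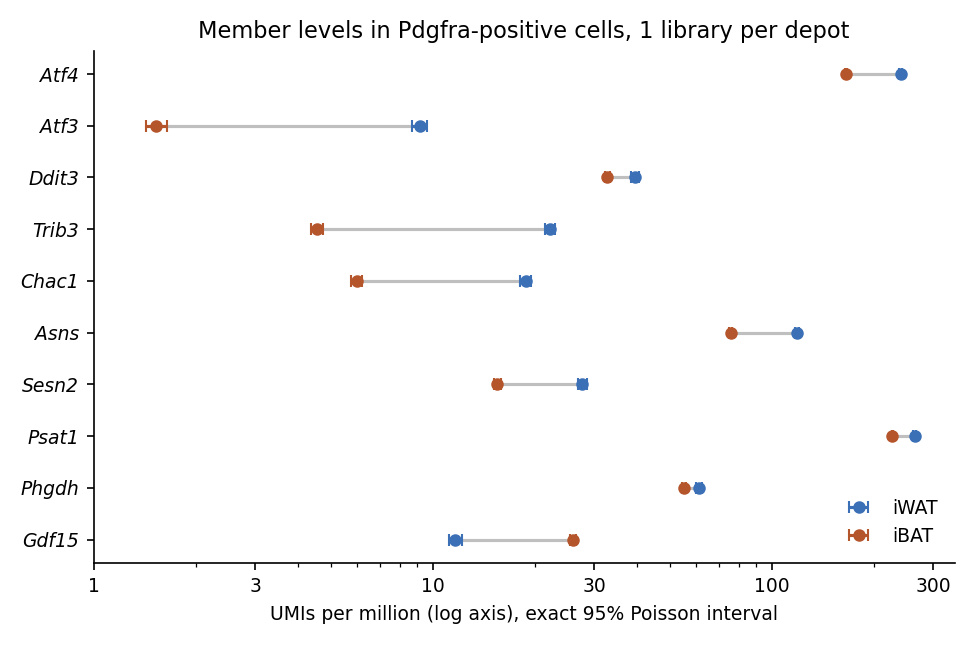
UMIs per 1000000 (log axis) of each member in Pdgfra-positive cells of the iWAT and iBAT libraries, with exact 95% Poisson intervals and a grey line joining the depots. Atf3, Trib3 and Chac1 lie farthest apart toward iWAT and Gdf15 is the member that lies toward iBAT.

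Atf4 itself was measured at 240.3 CPM (237.9 to 242.7) for iWAT and 165.4 CPM (164.2 to 166.5) for iBAT, a level 1.45-fold higher in iWAT (1.43 to 1.47). The intervals cover counting error only and are narrow at such counts. Of the genes compared that had UMIs in both libraries, 13.0% had a lower ratio of iBAT over iWAT. The difference was smaller than that of the 3 members named above. The Atf4 message was found in most cells of both libraries. Of cells thinned to 10000 UMIs, 85.1% had an Atf4 UMI in iWAT and 76.7% in iBAT.

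The transcription factors downstream of Atf4 separated. Atf3, a stress-induced bZIP repressor that is also an immediate-early gene, had 9.16 CPM in iWAT against 1.53 CPM in iBAT, 5.99-fold higher in iWAT (5.48 to 6.54). Ddit3, which encodes the pro-apoptotic factor CHOP, had 39.5 CPM in iWAT against 32.8 CPM in iBAT, and its ratio of 1.21 (1.17 to 1.24) was the third smallest of the members. The Ddit3 locus overlaps Mars1, and 64.3% of the 75-base words of its annotated transcripts also occur, on either strand, in transcripts of other genes. The Ddit3 counts are therefore uncertain. The same share was 17.8% for Phgdh, whose partners are predicted genes, 6.48% for Gdf15, 1.80% for Asns and 0 for the other 6 members.

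Trib3 and Chac1 were both well above their iBAT level in iWAT. Trib3, a pseudokinase that binds ATF4 and damps its activity, had 22.3 CPM in iWAT against 4.57 CPM in iBAT, a 4.87-fold higher level in iWAT (4.61 to 5.13). Chac1, a gamma-glutamyl cyclotransferase that degrades glutathione, was at 18.8 CPM and 5.97 CPM, 3.15-fold higher in iWAT (3.00 to 3.32). At 10000 UMIs per cell, a Trib3 UMI was found in 17.2% of iWAT and 4.16% of iBAT cells, and a Chac1 UMI in 14.4% and 4.49%. Without thinning the Trib3 shares were 25.2% and 9.34%, in cells with medians of 16986 and 27385 UMIs. None of the cell classes here is known to lack these stress-inducible genes, so no background share could be read.

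The amino acid enzymes differed less. Asns, which makes asparagine, had 118.8 CPM in iWAT against 75.8 CPM in iBAT (1.57-fold, 1.54 to 1.60). The serine pathway enzymes were close to level: Psat1 was at 264.2 and 226.9 CPM (1.16-fold, 1.15 to 1.18), and Phgdh, the enzyme of the committed step, at 61.2 and 55.1 CPM (1.11-fold, 1.08 to 1.14). Sesn2, a leucine sensor upstream of mTORC1 and also a p53 target, was at 27.7 and 15.5 CPM (1.78-fold, 1.72 to 1.85).

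Gdf15, a secreted hormone of the TGF-beta family that acts on the hindbrain, went the other way. Its level was 11.7 CPM (11.2 to 12.2) for iWAT and 25.9 CPM (25.5 to 26.4) for iBAT, 2.22-fold higher in iBAT (2.11 to 2.33). In iBAT it was higher in deeper cells, at 14.1 CPM in the shallowest tertile of Pdgfra-positive cells and 24.3 and 33.1 CPM in the next tertiles. The iWAT tertiles were at 10.7, 11.6 and 12.2 CPM. The deepest iWAT tertile, with a median of 24085 UMIs, had 12.2 CPM against 14.1 CPM in the shallowest iBAT tertile, with a median of 19918 UMIs. The difference between these tertiles was smaller than the 2.22-fold over all Pdgfra-positive cells, and the part of depth was not tested. In Pdgfra-positive cells without a UMI of any other class's markers, 3549 in iWAT and 7290 in iBAT, the Gdf15 log2 ratio was 0.74, and in those without a Fos or Fosb UMI it was 0.87. Both values are below the 2-fold mark.

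Over all kept cells, which include every class, the same 3 members were 2-fold or more higher in iWAT, and 0 were so in iBAT. Of the 13991 genes compared, 7.78% were 2-fold or more higher in iWAT and 6.53% in iBAT. Atf3 was at 17.98 and 3.15 CPM, Trib3 at 22.3 and 5.30 CPM and Chac1 at 20.1 and 6.90 CPM. The mix of classes differed between the libraries. The kept iWAT cells included 4449 epithelial-like cells, which held 3805 of the 9022 Atf3 UMIs, and iBAT had 0 such cells. The part of this mix in the all-cell values was not tested. Gdf15, at 14.2 and 27.7 CPM, was 1.95-fold higher in iBAT and fell short of the mark.

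Of 33 other genes known as ATF4 targets, all compared, 7 were 2-fold or more higher in iWAT and 0 in iBAT, against 6.63% and 5.74% of all genes, with a median log2 ratio of -0.63 against 0.05. Fgf21, an endocrine FGF, had the largest ratio, with 10.8 CPM in iWAT against 0.258 CPM in iBAT (41.9-fold, 35.0 to 50.6). Cth, the transsulfuration enzyme that makes cysteine, was at 22.5 and 3.69 CPM (6.10-fold). Stc2, a secreted glycoprotein, was at 35.6 and 8.32 CPM (4.28-fold), and Vldlr, a lipoprotein receptor, at 37.9 and 13.0 CPM (2.92-fold). The listed transfer RNA synthetases and amino acid transporters were all below 2-fold, from Nars at 381.5 and 228.1 CPM to Slc1a5, which was higher in iBAT at 91.2 and 125.8 CPM.

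In the upstream and neighbouring stress lists no gene was 2-fold apart, but with 6.63% and 5.74% of all genes past that mark, counts this small are near the background. Of 11 genes of the eIF2alpha pathway (kinases, eIF2alpha, eIF2B subunits and the constitutive phosphatase subunit Ppp1r15b), 0 were 2-fold apart, with a median of -0.10. Of 12 ER chaperones and unfolded protein response genes 0 were apart, but 10 were lower in iBAT, with a median of -0.40. The share of all genes lower in iBAT was not taken, and the median of all genes compared was 0.05. Hspa5, the ER chaperone BiP, had 2211 CPM in iWAT against 1351 CPM in iBAT. Of 10 p53 targets 0 were apart (median 0.25).

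Of 10 immediate-early genes, 5 were 2-fold or more higher in iWAT and 0 in iBAT, against 6.63% and 5.74% of all genes, with a median of -0.99. The other 5 were below 2-fold, among them Junb at 143.1 and 133.1 CPM and Zfp36, which was higher in iBAT at 141.7 and 190.7 CPM. Fosb was at 201.7 and 27.9 CPM (7.23-fold), Fos at 410.4 and 119.5 CPM (3.44-fold), Jun at 339.2 and 127.1 CPM (2.67-fold) and Nr4a1 at 148.4 and 59.3 CPM (2.51-fold). These transcripts also respond to dissociation and handling of cells. The part of handling in the depot ratios was not tested, and a cell without a Fos or Fosb UMI cannot be taken as unaffected by it. In the 2171 iWAT and 11328 iBAT cells without a Fos or Fosb UMI at 5000 UMIs, the log2 ratios were -2.07 for Atf3, -2.46 for Trib3 and -1.63 for Chac1, against -2.58, -2.28 and -1.66 in all Pdgfra-positive cells. Markers of other classes moved as well. The 12 epithelial markers together gave 68.2 CPM in the iWAT Pdgfra-positive cells against 17.9 CPM in those of iBAT, and the 8 adipocyte markers 48.3 and 96.6 CPM. Without cells holding a UMI of any of these markers, the log2 ratios were -3.01 for Atf3, -2.34 for Trib3 and -1.51 for Chac1.

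**Figure D2:**
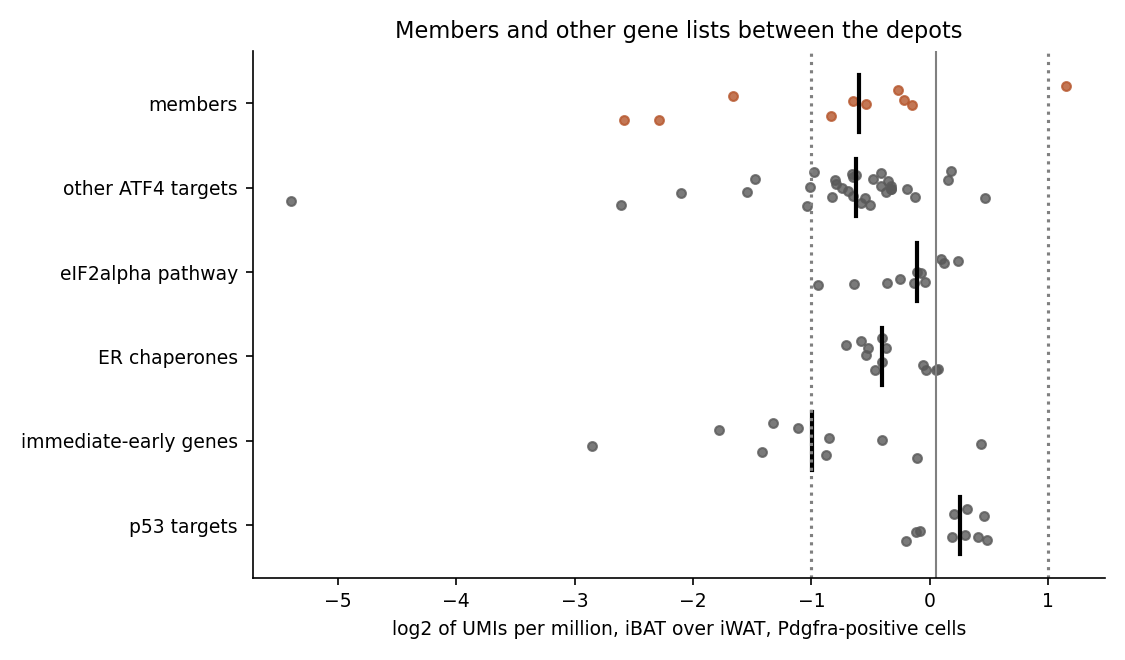
Log2 ratio of UMIs per 1000000, iBAT over iWAT, in Pdgfra-positive cells for each gene of the members and of the other lists. Points are genes, black bars list medians, the grey line the median of all genes compared and the dotted lines 2-fold, and the members (-0.59), other ATF4 targets (-0.63) and immediate-early genes (-0.99) have the lowest medians.

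Marker-gated classes of at least 50 cells were compared with the Pdgfra-positive cells of the same library. All comparisons of a library share those cells, so they are not independent. Classes needed 3 of their own markers, fewer than 3 of any other and no Pdgfra UMI, and in each class the 10 leading genes held 0 markers of another class. The gate used those same markers, so this is no independent check of the classes. Cells that met several gates were left out and no doublet caller was run. A further 15791 iWAT and 9225 iBAT cells met no gate, and 0 members were 2-fold apart from the Pdgfra-positive cells there. Few genes were, at 0.0226% higher and 0.0981% lower in iWAT and 0.242% and 0.0303% in iBAT, so the count is near the background. Below that mark, Chac1 and Trib3 were 1.44-fold and 1.43-fold higher in the iBAT cells without a gate, and Gdf15 1.36-fold higher in those of iWAT.

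Atf3 differed most between classes. In iWAT it was at 69.1 CPM in the 4449 epithelial-like cells, 145.7 CPM in the 143 immune-like cells and 78.2 CPM in the 63 Schwann-like cells, against 9.16 CPM in Pdgfra-positive cells. In iBAT it was at 59.9 CPM in the 201 immune-like, 49.6 CPM in the 170 endothelial-like and 67.3 CPM in the 532 Schwann-like cells, against 1.53 CPM. The ratios were 7.54 (7.09 at the lower bound), 15.9 (13.9) and 8.53 (6.24) in iWAT and 39.1 (34.02), 32.4 (27.6) and 44.0 (39.4) in iBAT. The iBAT cells without a gate, at 1.88 CPM, were close to the Pdgfra-positive cells. The myogenic-like cells were at 4.39 CPM from 19 UMIs and the mural-like cells at 2.59 CPM from 4 UMIs, whose ratio interval held 1.

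Atf4 did not follow. Its level lay between 218.2 and 237.9 CPM in the iWAT classes and between 125.5 and 227.5 CPM in the iBAT classes. In each of these 8 comparisons it was within 2-fold of the Pdgfra-positive cells.

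In epithelial-like cells of iWAT, 1 member was 2-fold or more higher and 2 were lower, against 12.8% and 15.1% of genes. Psat1 was at 84.7 CPM and Phgdh at 25.7 CPM, against 264.2 and 61.2 CPM in Pdgfra-positive cells. With 2 markers required in place of 3, Psat1 was still 2-fold apart and Phgdh was not. The epithelial-like cells had a median mitochondrial share of 9.81% against 5.45% and a median of 11079 against 16986 UMIs, and the part of either was not tested. Trib3, at 20.2 CPM, and Gdf15, at 11.3 CPM, were near the Pdgfra-positive levels. In immune-like cells of iWAT, 2 members were higher and 5 lower, against 17.7% and 22.5% of genes. Asns was at 27.4 CPM against 118.8 CPM, Phgdh at 13.4 CPM and Chac1 at 4.66 CPM from 8 UMIs, and Gdf15 was higher at 33.2 CPM. In iWAT Schwann-like cells 1 member was higher and 1 lower, against 19.1% and 19.9% of genes, and the lower member, Gdf15, rested on 3 UMIs with an interval that held 1.

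In the iBAT classes, Atf3 and Gdf15 were each 2-fold or more apart in 4 of 5 classes. Immune-like cells had 2 members higher and 2 lower (13.3% and 23.1% of genes), with Gdf15 at 95.4 CPM against 25.9 CPM, a ratio of 3.68, and Phgdh at 23.1 CPM against 55.1 CPM. With 2 markers Atf3 and Gdf15 alone stayed apart there. Endothelial-like cells had 2 higher and 2 lower (12.5% and 16.2% of genes), with Gdf15 at 66.8 CPM and Psat1 at 81.6 CPM against 226.9 CPM. With 2 markers, in 217 cells, Psat1 and Phgdh were no longer 2-fold apart, while Chac1 was, toward the endothelial-like cells. Gdf15 was thus 2-fold or more higher in the immune-like cells of both depots.

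Schwann-like cells of iBAT had 2 members higher and 2 lower (10% and 16.1% of genes). Asns was at 152.4 CPM against 75.8 CPM, a ratio of 2.01 (1.90 to 2.13) whose interval spans the 2-fold mark, and with 2 markers it was not apart. Gdf15 was at 5.04 CPM. These cells had a median of 14950.5 UMIs and 8.115% mitochondrial UMIs, against 27385 and 6.40% in Pdgfra-positive cells, where Gdf15 was lower in shallower cells, and the part of either was not tested. Myogenic-like cells had 1 higher and 2 lower (15.1% and 23.6% of genes), with Ddit3 at 13.2 CPM against 32.8 CPM and Gdf15 at 9.005 CPM. Their median mitochondrial share was 12.7%, against 6.40% in Pdgfra-positive cells, and its part was not tested. With another cell filter, which asks for over 500 genes, sets no upper limit on genes and keeps cells under 15% mitochondrial UMIs, 144 cells were compared in place of 212, and 1 member, Gdf15, stayed 2-fold apart while Atf3 and Ddit3 did not. The 67 mural-like cells had 2 higher and 0 lower (8.14% and 10.7% of genes). These were Trib3 at 14.3 CPM and Chac1 at 18.8 CPM, from 22 and 29 UMIs.

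**Figure D3:**
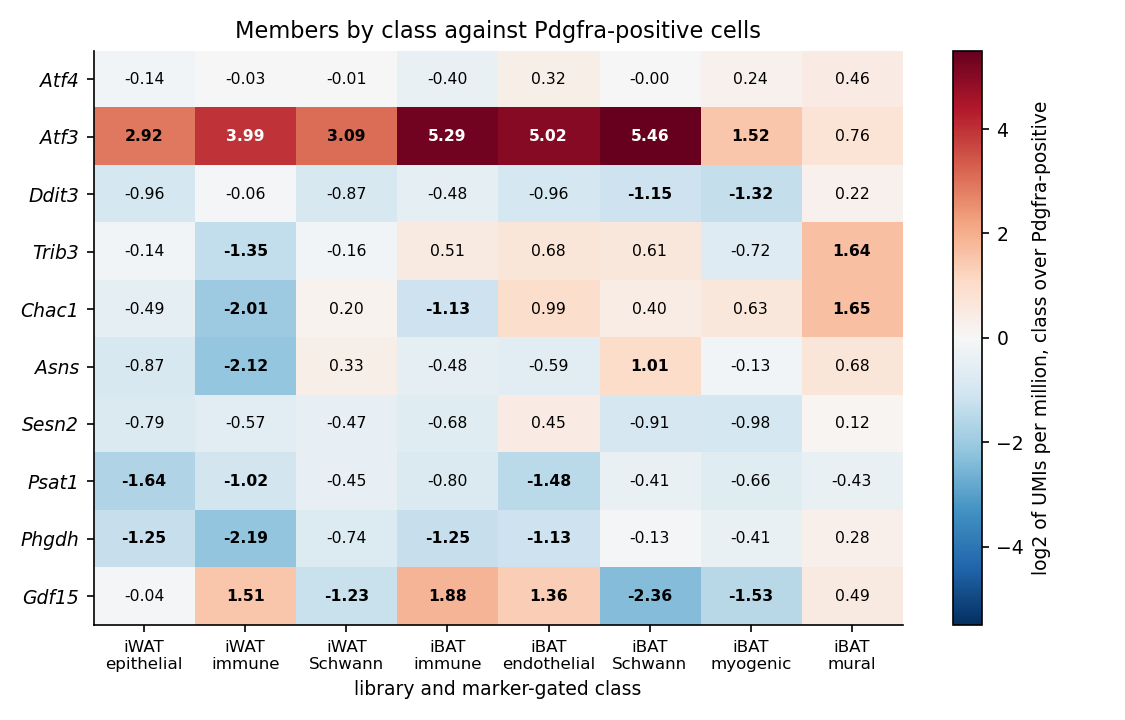
Log2 ratio of UMIs per 1000000 of each member, class over Pdgfra-positive cells of the same library, for 3 iWAT and 5 iBAT classes, with values 2-fold or more apart in bold. The Atf3 row is high in each class but iBAT mural, the Atf4 row is near 0 and Gdf15 changes sign between classes.

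Members were spread unevenly over Pdgfra-positive cells. At 10000 UMIs per cell the variance of the counts over their mean, which is 1 for counting noise alone, was largest for Gdf15, at 2.54 in iWAT and 4.59 in iBAT. Some iBAT cells carried up to 35 Gdf15 UMIs while 11.5% of cells had any, and equal rates in all cells would have given 21.1%. Psat1 followed at 2.02 and 1.84, and Sesn2 was lowest at 1.17 and 1.11. For the same relative spread between cells this ratio grows with the mean, which was 2.65 and 2.22 UMIs for Psat1 and 0.272 and 0.158 for Sesn2. The order of the ratios is therefore no ranking of how unevenly these members were spread.

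How far the members varied together within a depot was described by their correlation over Pdgfra-positive cells at 10000 UMIs. In iWAT 7577 cells entered and 1227 shallower ones were left out, and in iBAT all 17491 entered. Cells of a library share culture pools and library preparation, and cells are not replicates. The median Pearson r of the 45 pairs was 0.075 in iWAT and 0.037 in iBAT, beside 0.0014 and 0.0009 over all pairs of the 10017 and 10089 genes found in at least 5% of cells. The r was positive for 45 pairs in iWAT and 37 in iBAT, and the share of positive pairs over all genes was not taken. The reference pairs were not matched to the members for detection. In iBAT, Atf3, Trib3 and Chac1 were below the 5% of cells asked of reference genes. The r values of the members are small. Counts were low, and 9 of the 10 members had a lower mean in iBAT, which was not separated from the lower r there.

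The largest values lay among Asns, Psat1, Phgdh, Trib3, Chac1 and Atf4. The highest r in iWAT was 0.346, for Asns and Psat1, which was 0.167 in iBAT. Psat1 and Phgdh, successive enzymes of serine synthesis, had 0.253 in iWAT and 0.224, the highest, in iBAT. Trib3 and Chac1 had 0.243 and 0.133, and Atf4 and Trib3 0.206 and 0.104. In iWAT the 1094 cells with a Chac1 UMI had a Trib3 UMI in 38.4% (35.5 to 41.3), against 13.6% of the other cells. In iBAT the shares were 15.8% (13.3 to 18.5) of 786 cells and 3.61%.

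Atf3, Gdf15, Sesn2 and Ddit3 had lower medians than the other 6 members in both libraries, but single pairs overlapped. Their median r with the other members was 0.019, 0.064, 0.074 and 0.054 in iWAT and 0.015, 0.015, 0.028 and 0.028 in iBAT. Some of their pairs exceeded pairs among the other 6 members. In iBAT, Ddit3 had 0.092 with Trib3 and 0.089 with Chac1, above the 0.037 of Atf4 with Phgdh. In iWAT, Chac1 with Sesn2 had 0.119 and Trib3 with Ddit3 0.106, above the 0.097 of Atf4 with Phgdh. The lowest pair was Atf3 with Psat1, at 0.0054, in iWAT and Psat1 with Gdf15, at -0.019, in iBAT.

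**Figure D4:**
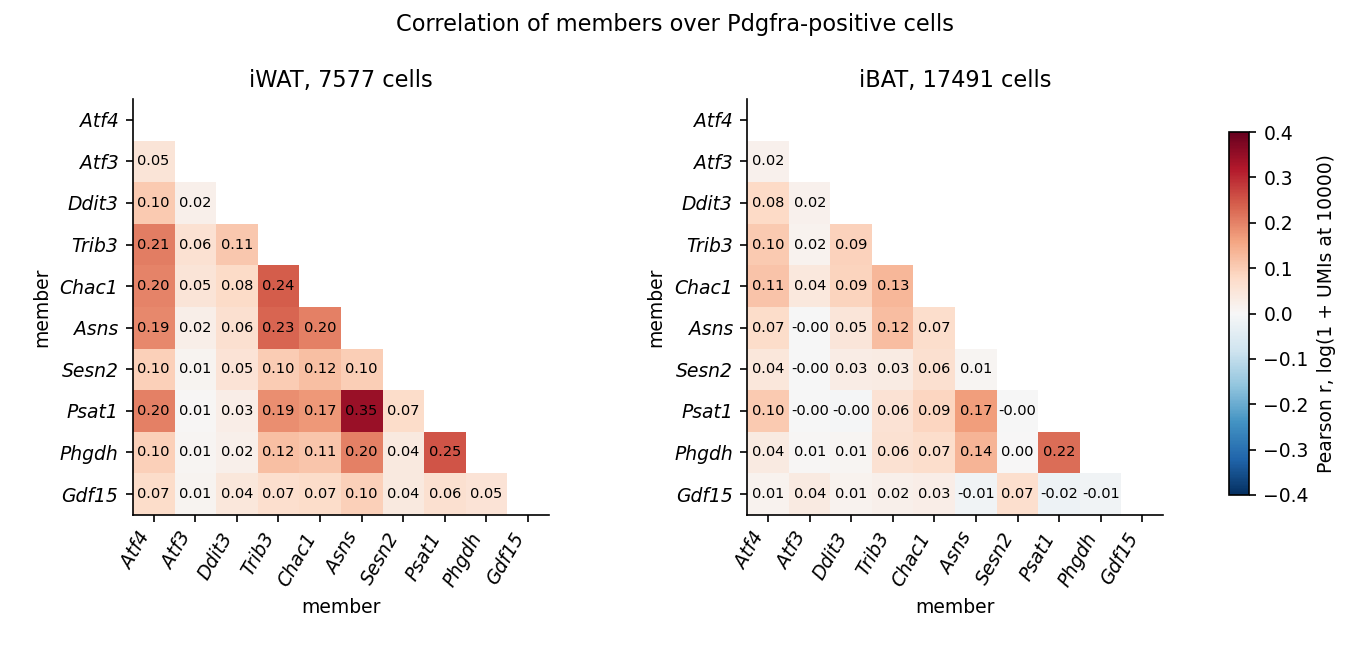
Pearson r of log(1 + UMIs) over Pdgfra-positive cells thinned to 10000 UMIs, for each pair of members in iWAT (7577 cells) and iBAT (17491 cells). The largest values in both panels, 0.346 and 0.224, lie among Asns, Psat1 and Phgdh, and the values of Atf3 are near 0.

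The genes nearest to each member were taken from all genes found in at least 5% of the cells of both libraries and ranked by the smaller r. Atf3, Trib3 and Chac1 were in fewer than 5% of iBAT cells, so they could not be listed as a neighbour. The r of Trib3 with Chac1, 0.243 in iWAT and 0.133 in iBAT, was above that of each neighbour listed for either. Nearest to Atf4 were Mthfd2, a mitochondrial folate enzyme, with 0.232 in iWAT and 0.121 in iBAT, and Slc7a5, an amino acid transporter. Trib3 was nearest to Slc7a5, with 0.217 and 0.131, and Pck2, the mitochondrial PEP carboxykinase. Chac1 was nearest to Mthfd2 and Atf4, and Asns to Slc7a5, with 0.325 and 0.232, and Pck2. Psat1 was nearest to Npm1, a nucleolar protein, with 0.281 and 0.343, and then to Shmt2, and Phgdh to Psat1 and Shmt2. Gdf15 was nearest to the p53 targets Cdkn1a, with 0.125 and 0.219, and Mdm2, with 0.124 and 0.144. By the smaller r, Sesn2 was also nearest to p53 targets, Trp53inp1 with 0.076 and 0.102 and Mdm2 with 0.065 in both. In iWAT alone, its r with Chac1, 0.119, and with Trib3, 0.103, was higher than with either of these. In iBAT those values were 0.063 and 0.032. Atf3 was nearest to the immediate-early genes Fosb, with 0.138 and 0.052, and Jun. Ddit3 was nearest to Sqstm1, an autophagy receptor, with 0.135 and 0.128, and Gadd45a.

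For the summed members, the 10 genes most alike were Slc7a5, with 0.446 in iWAT and 0.317 in iBAT, Mthfd2, Shmt2, Eif2s2 (the beta subunit of eIF2), Npm1, Nars, Anp32b, Hspa9, Atf5 and Pck2. The sum gives most weight to members found in many cells, such as Psat1, Atf4 and Asns. Of the 31 other ATF4 targets ranked, 15 were among the top 40 of 9622 genes. The median smaller r was 0.127 for the other ATF4 targets, 0.014 for the eIF2alpha pathway, -0.042 for the immediate-early genes, -0.039 for the p53 targets and -0.071 for the ER chaperones, beside -0.0079 for all ranked genes.

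**Figure D5:**
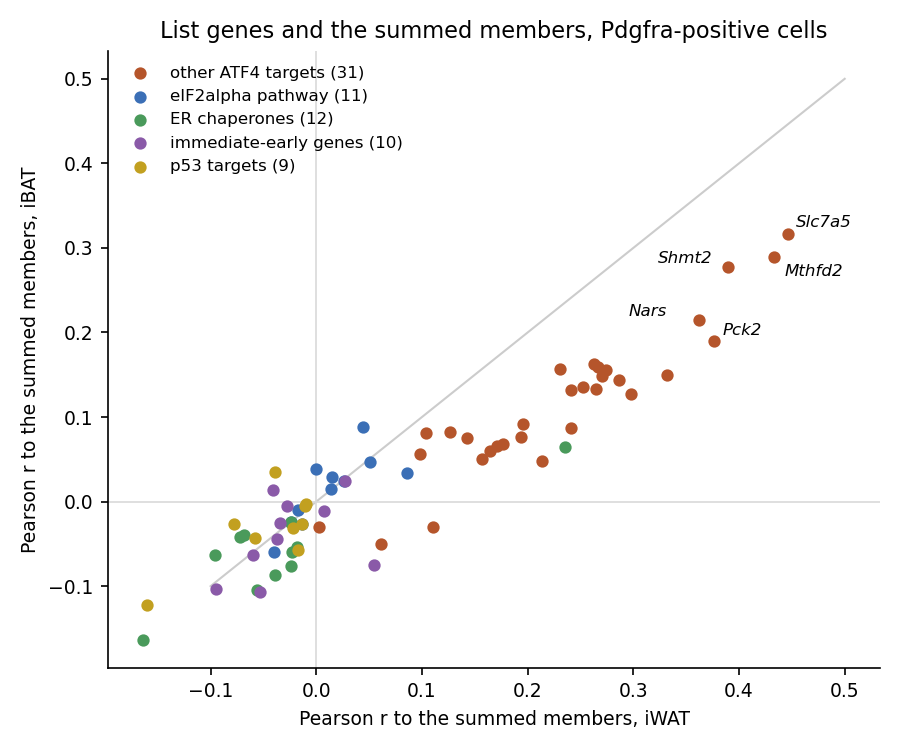
Pearson r of each listed gene with the summed members over Pdgfra-positive cells, iWAT on the x axis and iBAT on the y axis, with the grey line marking equal values. Other ATF4 targets extend to the upper right, led by Slc7a5 at 0.446 and 0.317, but some lie below 0 in iBAT, the lowest being Ddit4 at 0.061 and -0.050. Genes of the remaining lists lie on both sides of 0, from Calr at -0.16 in both to Herpud1 at 0.236 and 0.065.

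Some members differed with cell state. Pdgfra-positive cells with a Mki67 or Top2a UMI, which mark cycling cells, had more Psat1 than those without, at 291.6 against 230.4 CPM in iWAT and 259.9 against 173.2 CPM in iBAT. Phgdh was at 66.6 against 52.8 CPM and 62.0 against 43.9 CPM. Atf4 and Gdf15 were also higher in the cells with such a UMI in both libraries. Ddit3 went the other way, at 34.2 against 45.9 CPM and 28.3 against 40.1 CPM. So did Atf3, at 7.69 against 11.3 CPM and 1.31 against 1.89 CPM. Trib3 did so in iBAT, at 4.08 against 5.38 CPM, while its iWAT intervals overlapped, at 21.5 against 23.1 CPM. Asns was nearly level, at 120.0 against 119.0 CPM and 76.8 against 74.0 CPM.

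Atf4 was lower in cells with a larger mitochondrial share, at 283.4, 234.7 and 195.5 CPM over the tertiles in iWAT and 183.8, 165.5 and 145.0 CPM in iBAT. Chac1 had the same order, at 23.0, 18.3 and 14.5 CPM and 6.74, 6.07 and 5.03 CPM, as did Psat1, at 288.4, 268.0 and 230.7 CPM and 245.7, 228.3 and 204.7 CPM. Ddit3 had no such order, at 37.7, 35.4 and 46.8 CPM in iWAT and 33.6, 31.3 and 33.5 CPM in iBAT. Atf3 went the other way in iWAT, at 7.43, 9.46 and 10.9 CPM, and had 1.64, 1.47 and 1.48 CPM in iBAT. Trib3 was lower with a larger share in iWAT, at 25.3, 22.1 and 18.8 CPM, and higher in iBAT, at 4.31, 4.55 and 4.88 CPM, where the intervals of neighbouring tertiles overlapped. The other 4 members had no steady trend shared by both libraries.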

How the data were processed

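The authors deposited raw UMI counts per gene and cell barcode for 1 BD Rhapsody whole-transcriptome library per depot. The submitters' processing notes name mm39 and Seurat 5.0.0. Per the published methods, alignment and annotation were run in the data pipeline of a commercial genomics platform. Its aligner, gene annotation version and strand setting are not given in the sources used here. Columns of each matrix are cells, with no tag of treatment (0 tag features). Python 3.11.15, numpy 2.4.6 and scipy 1.17.1 were used.

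Cells with over 200 and under 7500 genes and under 30% mitochondrial UMIs were kept, as in the published methods. Counts were summed per library and class and scaled to 1000000. Genes at 1 CPM or more in either group were compared, 2-fold counting as apart. Gates used cells thinned to 5000 UMIs, and correlations, variances and shares of cells used 10000 UMIs. Shared 75-base words came from GENCODE M39 and promoter windows from RefSeq (GRCm38.p6). The routines were tested on simulated data.

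Members, lists and markers were chosen with earlier results of these data known. Named genes were all members, at most 4 genes per list and direction past 2-fold between depots, the 10 genes most like the summed members and the 2 nearest each member. Nars, Slc1a5, Eif2ak2, Hspa5, Junb, Zfp36, Calr, Herpud1 and Ddit4 were added after their values were seen.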

Additional observations from a re-analysis of the deposited data

How the results depend on the processing

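No paired analysis was possible because each depot had 1 library. Of 191 values recomputed under alternatives, 140 stayed within 1.5 times (or within the interval, for a member's ratio) and 51 moved. The sign could change only for the 90 recomputed member ratios and the median r values, and 0 of these did. The 4 members apart between depots stayed 3 to 6 in number: 6 at 1.5-fold (with Asns and Sesn2), and 3 with a 10 CPM filter, which drops Atf3, or without cells holding another class's markers or Fos or Fosb UMIs, where Gdf15 left. These last selections, the selection on cycling genes and the settings for the other targets were chosen after seeing the data. The other ATF4 targets higher in iWAT were 17 instead of 7 at 1.5-fold. All genes higher in iBAT and iWAT were 783 and 905, and became 1632 and 1632 at 1.5-fold, 329 and 404 with a 10 CPM filter, and 4399 and 3493 with no filter.

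Members apart from Pdgfra-positive cells at 1.5-fold were 6 for epithelial-like and 4 for Schwann-like cells of iWAT, and 8, 7 and 4 for endothelial-like, myogenic-like and mural-like cells of iBAT, against 3, 2, 4, 3 and 2. With 2 markers they were 1 for iWAT Schwann-like and 2, not 4, for iBAT immune-like cells, and with the other cell filter (over 500 genes, no upper limit, under 15% mitochondrial UMIs) 1 for iBAT myogenic-like cells. With 4 markers 9 mural-like cells remained, too few for a value. The median r was 0.049 in iWAT at 5000 UMIs, and 0.075 in iBAT without thinning, where unequal depth enters. At 5000 UMIs the median share of cells with a member's UMI was 14.4% in iWAT and 10.7% in iBAT. Depth limits Atf3, Trib3 and Chac1 in the small classes, and r for members with few UMIs.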
